A study of Mus musculus with 4 samples.

Results

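Blood endothelial cells of the neonatal mouse ear were compared by the amount of VEGFR2 protein on their surface. VEGFR2 was read with an antibody that carries a DNA tag, and the mRNA of the same cells was read by single-cell sequencing. A cell was eligible if it had at least 500 detected genes, at most 10% mitochondrial unique molecular identifiers (UMIs), at least 1 UMI of Cdh5, the gene of VE-cadherin, and no UMI of the 3 lymphatic genes Prox1, Mmrn1 and Reln. Of 4622 barcodes in the mRNA matrices, 2512 met these conditions and had tag data. The classes were chosen by the VEGFR2 tag count alone: cells with 7 or more were called high and cells with 0 or 1 were called low. The high class held 448 cells (160 in library 1 and 288 in library 2), the low class held 844 (406 and 438), and 1220 cells lay between them.

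All cells came from C57BL/6 mice at postnatal day 8. They were live, CD31+ and positive for a red fluorescent reporter (Rtom) switched on by Cdh5CreERT2, a tamoxifen-inducible Cre recombinase driven by the Cdh5 promoter, so high and low cells share this genotype and sort. The labels call the 2 libraries biological replicates and do not state whether animals were pooled. High and low cells of a pair of sums share a library, so a p-value has only 2 replicates behind it. The test takes out the level of each library. A p-value therefore weighs the difference of high and low cells against its variation between the 2 libraries and against a spread shared over genes. Adult and wounded ears were not analysed here. Library 1 held 15989249 UMIs and 301923 tag counts, and library 2 held 26675353 UMIs and 527008 tag counts. The endothelial genes Pecam1 and Emcn had a UMI in 98.1% to 100% of high cells and in 84.0% to 99.8% of low cells. Other endothelial genes were seen less often. Tie1 was found in 83.1% and 87.5% of high cells and 73.4% and 63.0% of low cells. For Tek the shares were 61.25% and 63.2% against 52.0% and 44.7%, and for Erg 37.5% and 50.3% against 20.7% and 21.0%.

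VEGFR2, encoded by Kdr and also called Flk1, is the main signalling receptor for VEGF-A on blood endothelium. Ligand binding drives the survival, division, migration and permeability of these cells, and the receptor is continually taken up, recycled and degraded. Tip cells lead new sprouts under VEGF, while Notch signalling is known to hold sprouting back in neighbouring cells.

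The protein values rest on tags of 15 bases, one per antibody, which the tag matrices give in their row names. They are shown because the call of high and low depends on telling 1 tag from the others. Bases that differ from the VEGFR2 tag at the same position, counted from the 5′ end, are in capitals.
VEGFR2 tag: ataagagcccaccat
ICAM1 tag: ataaCCgAcACAGTG
VCAM1 tag: CGTTCCTAccTAcCt
CXCR4 tag: GtCGTGgTGTTGTTC
CD45 tag: TGGCTaTGGAGcAGA
IgG2a isotype control tag: aAGTCagGTTCGTTt
IgG2b isotype control tag: GATTCTTGAcGAcCt
The tag nearest to that of VEGFR2 was the ICAM1 tag, which differed from it at 9 of 15 bases. The others differed at 11 to 13 bases.

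VEGFR2 tag counts formed 1 continuous distribution in each library, with no gap at either threshold. The median over eligible cells was 2 in library 1 and 3 in library 2, and the maximum was 41 in both. High cells had a mean of 10.6 tag counts in library 1 and 11.1 in library 2, against 0.527 and 0.509 in low cells. These values chose the classes and are given as a description. Just inside the high threshold, 33 and 54 cells had 7 tag counts, and just outside it 56 and 81 cells had 6. Around the low threshold, 214 and 223 cells had 1 tag count and 189 and 231 cells had 2. Kdr mRNA was 563 and 601 CPM (counts scaled to the same total of UMIs) in the cells with 7 tag counts and 459 and 539 CPM in those with 6. It was 344 and 405 CPM at 1 tag count and 400 and 439 CPM at 2.

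**Figure D1:**
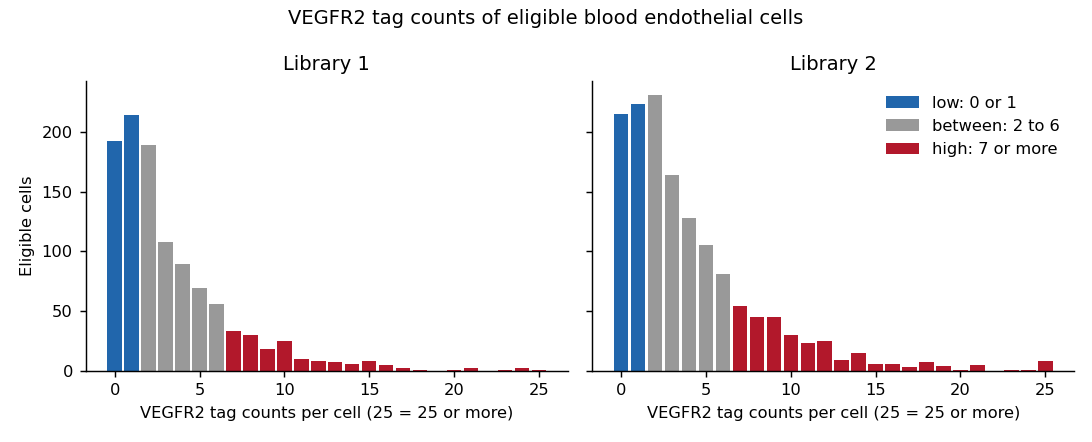
Number of eligible cells (y axis) at each VEGFR2 tag count (x axis, counts per cell, 25 stands for 25 or more) in libraries 1 and 2. Blue bars are low cells (0 or 1), grey bars are cells between the classes (2 to 6) and red bars are high cells (7 or more); the counts fall off without a gap at either threshold.

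The classes also differed in RNA depth and in background staining. High cells had medians of 13270 and 15126 UMIs in libraries 1 and 2, and low cells had 6655 and 6320.5. The ratio of mean UMIs, high to low, was 1.94 and 2.25. The IgG2a isotype control, an antibody with no intended target, averaged 2.18 and 3.62 tag counts in high cells against 0.872 and 1.20 in low cells. The IgG2b control averaged 0.419 and 0.594 against 0.158 and 0.217. Both controls were therefore higher in the high class in both libraries, at 2.49 to 3.02 times the low class. The larger ratio of the VEGFR2 tag itself is fixed by the thresholds. Spearman's rho of VEGFR2 tag counts with UMIs per cell was 0.448 over 1077 cells and 0.547 over 1435 cells. It was 0.228 and 0.341 with the IgG2a control.

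Pairs of 1 high and 1 low cell of the same library whose UMIs differed by at most 5% were therefore compared as well: 112 pairs in library 1 and 129 in library 2, a choice made after seeing the data. In these pairs the IgG2a control was still 1.90 and 2.13 times higher in high cells and the IgG2b control 2.68 and 2.11 times, whereas the ICAM1 tag came down from 1.85 and 2.11 times to 1.12 and 1.28 times. In all high and low cells, the CXCR4 tag was 1.74 and 2.19 times higher, the VCAM1 tag 1.19 and 2.86 times and the CD45 tag 2.43 and 5.16 times. In the high cells of library 2, 5 cells held 58.2% of all CD45 tag counts. The isotype tags move with the VEGFR2 tag. Fits on cells with few isotype tags and on pairs with equal isotype tags were therefore made for all genes, and values from them are given below and under the other settings.

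Kdr mRNA rose in the cells with much VEGFR2 protein. Kdr (chromosome 5, 75932827 to 75978458, minus strand, mm10) was at 571 CPM in the high cells of library 1 and 646 CPM in those of library 2, against 328 and 437 CPM in the low cells. Both high values lay above both low values. The log2 change was 0.68 ± 0.07 (SE, edgeR quasi-likelihood test with the library as a block, adjusted p = 5.22e-05), a 1.60-fold difference, with 0.80 in library 1 and 0.57 in library 2 alone. Without the block the adjusted p was 0.132 at a log2 change of 0.67.

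The rise was seen within cells of like depth. Eligible cells were split into 4 equal groups by UMIs in each library, and Kdr was higher in high than in low cells in each of the 4 groups of both libraries. In the group with the fewest UMIs, library 1 had 976 CPM in 12 high cells (95% exact Poisson interval 745 to 1256, counting error only) and 395 CPM in 164 low cells (351 to 443). In the same group of library 2, 13 high cells had 670 CPM (483 to 906) and 204 low cells had 513 CPM (468 to 562), so those intervals overlapped. In the group with the most UMIs, the levels were 555 and 604 CPM in high cells against 289 and 400 CPM in low cells. UMI-matched pairs gave a log2 change of 0.94 (edgeR adjusted p = 4.66e-14). A separate set of pairs had the same sum of isotype tags and UMIs that differed by at most 10%. These pairs gave 0.88 (adjusted p = 2.91e-05).

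**Figure D2:**
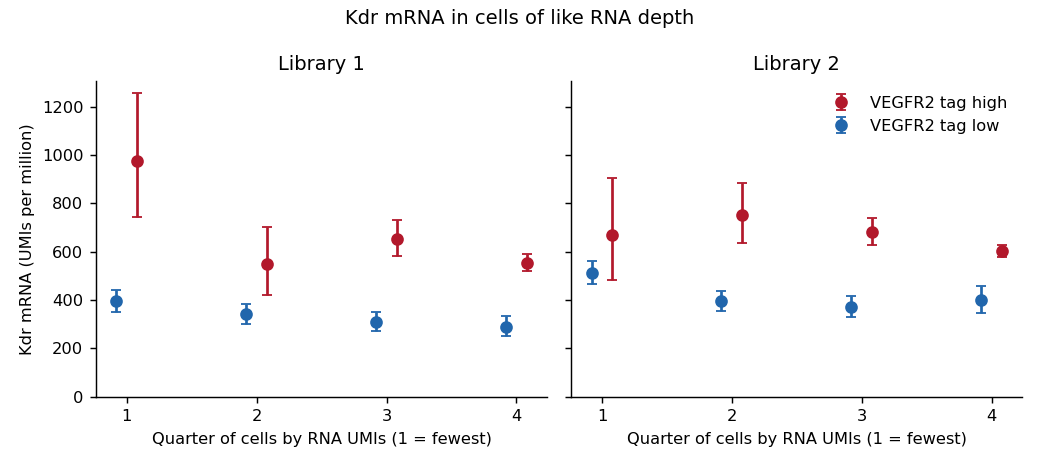
Kdr mRNA (y axis, CPM) in high (red) and low (blue) cells of 4 groups of equal size by RNA UMIs per cell (x axis, 1 = fewest), in libraries 1 and 2. Bars are 95% exact Poisson intervals, which cover counting error only; high cells lie above low cells in each group, and the intervals overlap in the first group of library 2.

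Over finer steps of protein, Kdr mRNA ran from 323 CPM in cells without a VEGFR2 tag to 637 CPM in cells with 15 or more in library 1. In library 2 it ran from 447 CPM at 0, through a lower 405 CPM at 1, to 751 CPM at 15 or more. Neighbouring steps often overlapped within counting error. Per cell the relation was loose: Spearman's rho between VEGFR2 tag counts and Kdr UMIs divided by all UMIs was 0.286 over 1077 cells and 0.217 over 1435 cells. Kdr had a UMI in 98.1% and 99.3% of high cells but also in 75.9% and 85.4% of low cells. After every cell was thinned to 3000 UMIs, which left out 1 shallower high cell and, in libraries 1 and 2, 20 and 14 low cells, the shares were 76.7% and 78.5% against 54.9% and 66.0%. Free RNA can also give such UMIs. Of the cells with immune markers and no Cdh5 UMI, 0 of 1 and 0 of 3 had a Kdr UMI (median depths 3518 and 9515 UMIs), too few to set a background.

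**Figure D3:**
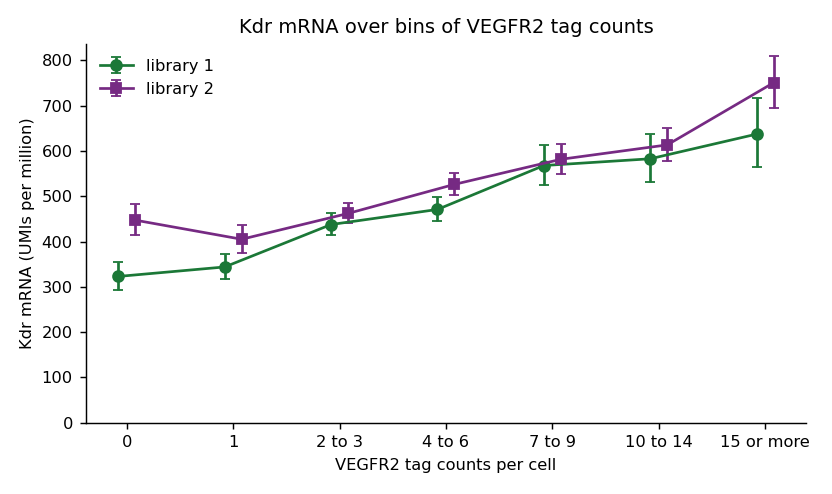
Kdr mRNA (y axis, CPM) in eligible cells binned by VEGFR2 tag counts (x axis) in library 1 (circles) and library 2 (squares). Bars are 95% exact Poisson intervals for counting error; levels run from 323 to 637 in library 1 and from 405 to 751 in library 2.

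Across all 10699 genes tested, 793 differed between high and low cells at an adjusted p of 0.05 (7.41%). Of these, 300 rose (2.8%) and 493 fell (4.61%) in high cells, and 790 had the same direction in both libraries. The median log2 change of all genes was 0.00. Counts of called genes in the lists below are to be read beside these shares of 2.8% and 4.61%. In the UMI-matched pairs, 675 of 9216 genes differed (7.32%), with 264 higher (2.86%) and 411 lower (4.46%). DESeq2 on all high and low cells called 142 genes (1.33%), 24 higher (0.224%) and 118 lower (1.1%), and each of these was among the 793. Of 736 genes called in all cells and tested in the pairs, 662 kept their direction there and 325 were called again in that direction. Intermediate cells, which the comparison did not use, had a level between those of high and low cells in both libraries for 676 of the 793 called genes (85.2%) and for 2732 of all 10699 (25.5%). Called genes were selected for a wide gap between the classes, which makes a level between them likelier. The contrast of these shares is a description and no separate support.

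**Figure D4:**
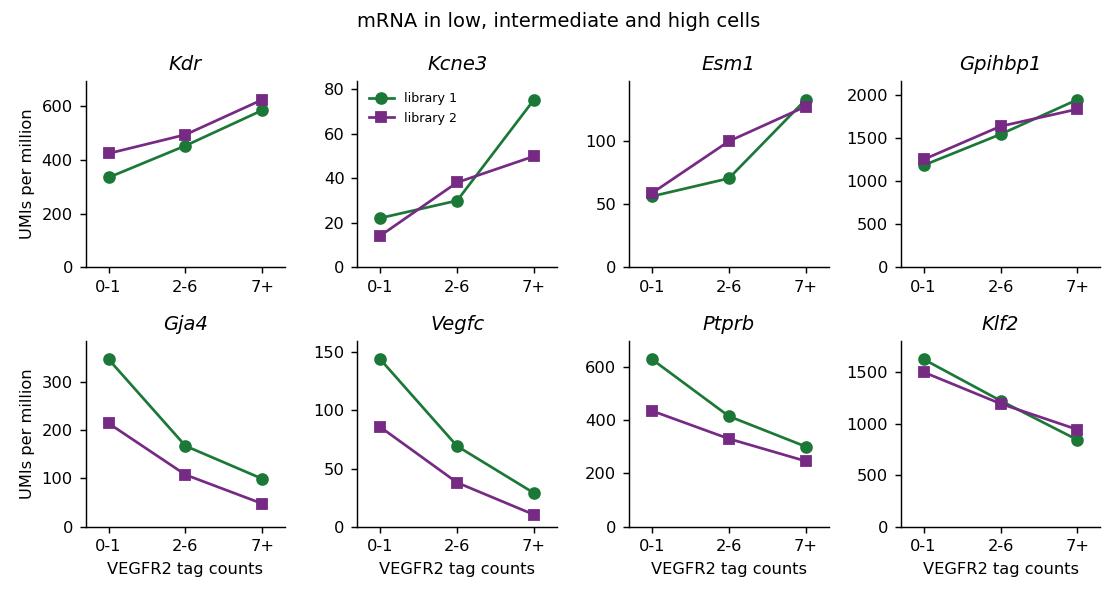
mRNA (y axes, CPM) in cells with 0 or 1, 2 to 6, and 7 or more VEGFR2 tag counts (x axes) for 8 genes in library 1 (circles) and library 2 (squares). Kdr, Kcne3, Esm1 and Gpihbp1 step up and Gja4, Vegfc, Ptprb and Klf2 step down, with the intermediate cells between the classes in both libraries.

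Among the 9 tested genes for VEGF ligands and receptors, 2 rose (Kdr and Nrp2) and 1 fell (Vegfc), with a median log2 change of 0.16 against 0.00 for all genes. Nrp2, a co-receptor, was at 140 and 133 CPM in high cells and 116 and 98.3 CPM in low cells, a log2 change of 0.36 ± 0.09 (SE, adjusted p = 0.0296). Vegfc, the ligand best known for lymphatic growth, was at 28.2 and 10.8 CPM in high cells against 141 and 88.3 CPM in low cells. Both high values lay far below both low values, and the log2 change was -2.65 ± 0.15 (SE, adjusted p = 3.85e-07).

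The other receptors did not pass. Flt1, the decoy receptor VEGFR1, had 402 and 453 CPM in high cells and 391 and 479 CPM in low cells, so the groups overlapped, with a log2 change of -0.02 ± 0.06 (SE). It passed in the UMI-matched pairs, at a log2 change of 0.40 (adjusted p = 0.00462). Nrp1, the co-receptor that binds VEGF-A together with VEGFR2, had a log2 change of -0.04 ± 0.06 (SE, adjusted p = 0.818), and Flt4 one of 0.57 ± 0.18 (adjusted p = 0.0807). Of the ligands, Vegfa (-1.13 ± 0.52), Vegfb (0.21 ± 0.16) and Pgf (0.16 ± 0.20) did not pass, and Vegfd had 5 UMIs in all and was not tested.

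The genes that take up, recycle or dephosphorylate VEGFR2 gave 1 rise and 2 falls among 24 tested, at a median log2 change of 0.06. Such small counts are close to the shares of all genes, 2.8% higher and 4.61% lower. Ptprb, the endothelial phosphatase VE-PTP, which limits VEGFR2 and Tie2 activity, was at 293 and 255 CPM in high cells and 615 and 447 CPM in low cells. Its log2 change was -0.94 ± 0.07 (SE, adjusted p = 5.33e-06), and it was -0.33 in the UMI-matched pairs (adjusted p = 0.0470). In pairs of cells outside 3 short marker sets (artery, vein and dividing) it was 0.052. A cell was placed in a set by at least 2 UMIs over the genes of that set, so cells with fewer stayed in. Efnb2, the ephrin that promotes VEGFR2 uptake and also marks arteries, fell by 0.57 ± 0.09 on the log2 scale (adjusted p = 0.00208), but its log2 change was -0.01 in the pairs. Rab4a, a GTPase of fast recycling, rose by 0.49 ± 0.12 (adjusted p = 0.0278) and by 0.77 in the pairs (adjusted p = 0.000500).

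Of the 26 tested genes of the signalling chain below VEGFR2, 0 passed with edgeR in all high and low cells and 0 with DESeq2, and 6 had an unadjusted p under 0.05 (5 higher and 1 lower). Their median log2 change was 0.09. The lowest adjusted p-values belonged to Hspb1, a heat shock protein phosphorylated under VEGF (0.22, adjusted p = 0.0815), and the kinase Mapk3 (-0.25, adjusted p = 0.0862). In the pairs 1 of 25 passed, the kinase Fyn (0.42, adjusted p = 0.0329). Genes known to respond to VEGF moved both ways: 4 of 22 rose and 3 fell, with a median of -0.04. Those that rose included Esm1, Apln and Angpt2, secreted proteins of sprouting endothelium, and the falls included Cyr61, a matricellular protein (-0.50 ± 0.10, adjusted p = 0.0105).

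Tip and sprouting markers leaned to the high class. Of 18 tested, 11 rose and none fell, with a median log2 change of 0.47 (DESeq2: 5 and none; unadjusted p under 0.05: 11 and 2). Kcne3, a potassium channel subunit found in tip cells, was at 73.5 and 51.6 CPM in high cells and 21.6 and 14.5 CPM in low cells. It gave a log2 change of 1.79 ± 0.14 (SE, adjusted p = 4.42e-06). Esm1, a secreted proteoglycan of tip cells, was at 130 and 132 CPM against 55.1 and 60.5 CPM, with a log2 change of 1.18 ± 0.10 (adjusted p = 7.89e-06).

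For both genes each high value was at least 2 times each low value of the same library. Apln, the ligand of the apelin receptor, rose by 0.83 ± 0.08 on the log2 scale (adjusted p = 1.83e-05). It was at -0.20 in the pairs outside the short artery, vein and dividing sets. Col4a1, a chain of the basement membrane collagen, was at 2867 and 3199 CPM against 1915 and 2194 CPM, a rise of 0.56 ± 0.04 (adjusted p = 1.87e-06). In the UMI-matched pairs 9 of the 18 rose and none fell, with Esm1 at 1.83 and Kcne3 at 2.05. Without the block 4 rose. Angpt2 rose by 0.65 in all cells (adjusted p = 0.0135) and had a log2 change of -0.25 in the pairs (adjusted p = 0.612). In the pairs outside the short artery, vein and dividing sets, 2 of 17 tip markers rose and 1 fell, at a median of 0.21. Pgf, also on this list, was at -3.62 there (edgeR adjusted p = 0.00195). It was at -2.25 in pairs with equal isotype tags (adjusted p = 0.00359).

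Of 16 capillary markers tested, 8 rose in high cells, none fell and 8 did not pass, with a median log2 change of 0.45 (DESeq2: 2 and none; unadjusted p under 0.05: 10 and 0). Gpihbp1, the capillary anchor of lipoprotein lipase, was at 1899 and 1900 CPM in high cells and 1161 and 1289 CPM in low cells. Its log2 change was 0.63 ± 0.05 (SE, adjusted p = 5.08e-06). Btnl9 rose by 0.78 ± 0.09, Rgcc, a cell cycle regulator known from capillaries, by 0.68 ± 0.10, and Cd36, the fatty acid translocase, by 0.52 ± 0.09 on the log2 scale. In the pairs 12 of 16 rose and none fell, with a median of 0.67. Among cells with few isotype tags 5 of 15 rose at a median of -0.02, and without the block 0 of 16 passed. In pairs outside the short artery, vein and dividing sets 1 of 13 rose.

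Artery markers had the lowest median of the 25 lists, and all 19 were lower in high cells in both libraries, as were 30.7% of all genes (31.9% were higher in both). Of 19 tested, 18 passed downward and none upward, with a median log2 change of -2.53 against 0.00 for all genes (DESeq2: 13 lower). Without the block 9 passed. Gja4, the gap junction protein connexin 37, was at 96.8 and 49.4 CPM in high cells and 340 and 220 CPM in low cells, a log2 change of -1.98 ± 0.10 (SE, adjusted p = 1.94e-07). Sema3g, an arterial semaphorin, had 36 and 64 UMIs in high cells against 299 and 236 in low cells (-2.53 ± 0.14, adjusted p = 2.93e-07). For each of these genes, and for all 19, both high values lay below both low values. The share of all genes that meet this stricter measure was not counted.

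The 10 largest falls were led by Gkn3, which had 0 and 13 UMIs in the high cells of libraries 1 and 2 against 364 and 89 in the low cells, and a log2 change of -4.95 ± 0.44. Eln, which encodes elastin, was at 86.0 and 123 CPM against 1901 and 621 CPM (-3.31 ± 0.32), and Fbln5, an elastic fibre protein, at 90.9 and 80.2 CPM against 735 and 373 CPM (-2.60 ± 0.14). Tmem100 (-4.44), Serpinf1 (-3.61), Stmn2 (-3.21), Egfl8 (-3.02), Fn1, which encodes fibronectin (-3.01), Vegfc (-2.65) and Ctsh (-2.64) completed the 10 largest falls. All 10 also passed downward in the UMI-matched pairs, but not with both libraries alike. In library 2 of the pairs Gkn3 was higher in high cells (9.62 against 4.95 CPM), Ctsh was at 25.2 against 28.3 CPM and Eln at 263 against 329 CPM.

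Of 17 Notch pathway genes 5 fell, none rose and 12 did not pass (median -0.12; DESeq2: 3 lower; unadjusted p under 0.05: 0 higher and 8 lower). In the pairs 3 of 16 fell at a median of -0.02. Without cells of the short artery and vein sets 0 of 15 passed at a median of 0.0095. The ligand gene Jag1 was at 24.1 and 24.6 CPM in high cells against 95.5 and 76.0 CPM in low cells (-1.78 ± 0.13, adjusted p = 2.92e-06), and the target gene Hey1 changed by -1.36 ± 0.13. Jag1, Hey1 and Hey2 belong to the artery list as well. Without cells of the short artery and vein sets, the log2 change of Jag1 was 0.017 and that of the arterial factor Sox17 was 0.052. Among 31 endothelial transcription factors 13 fell and 3 rose, with a median of -0.06. In the pairs 5 of 30 fell and 4 rose. Klf2, which responds to blood flow, was at 822 and 975 CPM in high cells and 1591 and 1544 CPM in low cells (-0.81 ± 0.06, adjusted p = 5.33e-06), and Hhex fell by 0.89 on the log2 scale. In all cells Sox17 fell by 0.65 (adjusted p = 0.000162) but missed the threshold in the pairs at -0.18 (adjusted p = 0.494).

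Vein markers gave 5 falls and 2 rises among 11 tested, with a median log2 change of -0.47 (DESeq2: none higher and 1 lower). Without the block 0 of 11 passed. Icam1, given below with the tagged proteins, is on this list and was among the rises. Vwf, von Willebrand factor, was at 80.6 and 68.1 CPM in high cells against 320 and 163 CPM in low cells (-1.61 ± 0.13, SE, adjusted p = 7.89e-06). Nr2f2, the venous transcription factor COUP-TFII, was at 77.7 and 74.2 CPM against 122 and 96.3 CPM (-0.50 ± 0.10, adjusted p = 0.00798). In the pairs 7 of 11 fell and 1 rose. In pairs outside the short artery, vein and dividing sets 1 of 8 fell and 0 rose, at a median of -0.05.

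**Figure D5:**
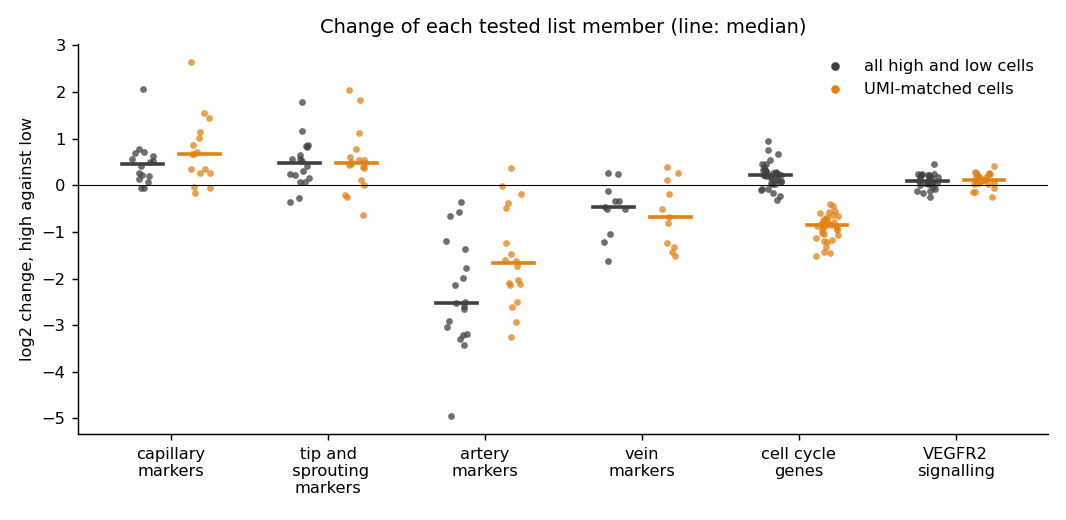
log2 change of mRNA, high against low (y axis), for each tested member of 6 gene lists (x axis); dark points are all high and low cells, orange points the UMI-matched pairs, and lines the medians. Capillary and tip markers lie mostly above 0 and artery markers below it in both, while the cell cycle median moves from 0.23 to -0.86.

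Shares of cells put the same gene groups in terms of cells. A cell was counted when it had at least 2 UMIs over a short marker set, chosen after the longer lists were seen to take nearly all cells. Esm1, Apln and Kcne3 were already called higher above, and Sema3g and Gkn3 lower. The shares of their sets restate those calls in terms of cells and are no separate support. Tip genes (Esm1, Apln and Kcne3) were found in 70.6% and 71.5% of high cells and in 28.8% and 32.2% of low cells. With cells thinned to 3000 UMIs the shares were 34.6% and 33.3% against 16.3% and 15.6%. Capillary genes (Car4, Timp4, Aqp7 and Cd300lg) were found in 90.0% and 90.3% of high and 46.3% and 54.1% of low cells, and after thinning in 50.3% and 43.4% against 28.5% and 31.6%. The thinned differences have the same direction in both libraries.

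Artery genes (Gja5, Bmx, Sema3g, Gkn3 and Cxcl12) were found in 30.6% and 31.2% of high cells and in 49.8% and 38.6% of low cells, and after thinning in 17.6% and 13.2% against 40.7% and 32.1%. Vein genes (Ackr1 and Selp) were found in 14.4% and 16.0% of high and 14.8% and 13.2% of low cells, a difference within the 95% exact binomial intervals of each library. Many cells lay next to the limit: in library 2, 62 of 288 high and 69 of 438 low cells were within 1 UMI of it for the artery set.

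The cells that carry VEGFR2 protein can be read from the same sets in the other direction. Cells with capillary genes had a median of 3 VEGFR2 tag counts in both libraries, and cells without them a median of 1. Cells with tip genes had medians of 3 and 4, against 2 and 2 without. Both kinds of cell were also deeper: 9243 and 9943 median UMIs with capillary genes against 7243 and 6726.5 without, and 10407 and 10766 with tip genes against 7189 and 7317. Per 1000 UMIs, cells with capillary genes had 0.391 and 0.420 VEGFR2 tag counts against 0.219 and 0.284, and cells with tip genes 0.382 and 0.429 against 0.295 and 0.343. Cells of the short dividing set had medians of 4 and 4 tag counts against 2 and 2, but fewer per 1000 UMIs (0.321 and 0.364 against 0.348 and 0.409). Kdr mRNA was at 520 and 572 CPM in cells with capillary genes and 280 and 319 CPM in those without. When cells of the short artery and vein sets were left out, the count of called genes was 195. Kdr was still called there at a log2 change of 0.44 (edgeR adjusted p = 1.45e-05), Kcne3 at 1.59 and Esm1 at 1.09.

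Cell cycle genes differed one way in all cells and the other way in UMI-matched pairs. In all high and low cells 5 of 36 rose and none fell, at a median log2 change of 0.23 (DESeq2: 0; unadjusted p under 0.05: 13 higher and 0 lower). Without candidate doublets 0 rose and 3 fell, at a median of -0.20, and with cells thinned to 3000 UMIs 0 of 33 passed, at a median of 0.11. Mki67, the proliferation marker Ki-67, was at 152 and 112 CPM in high cells and 108 and 92.8 CPM in low cells (0.38 ± 0.09, adjusted p = 0.0252), and Tpx2, a spindle protein, rose by 0.54 (adjusted p = 0.0109). In the UMI-matched pairs none of 35 rose and 30 fell, at a median of -0.86.

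There, Mki67 was at 121 and 68.1 CPM in high cells against 185 and 148 CPM in low cells, a log2 change of -0.86 (adjusted p = 2.73e-06). The summed list showed this in each of the 4 depth groups of both libraries, where high cells were below low cells in 8 of 8 comparisons. In the deepest group the list summed to 3376 and 2563 CPM in high cells against 4250 and 3173 CPM in low cells, and in the shallowest to 374 and 367 CPM against 673 and 712 CPM. The deepest group carried more cell cycle mRNA than the shallowest in both classes. Low cells of library 2 had more in the third group (3661 CPM) than in the deepest. Of the high cells, 53.8% and 60.1% were in the deepest group. The part of depth in the change of direction was not tested. By the same count, capillary and tip lists were higher in high cells in 8 of 8 comparisons, and the artery list lower in 8 of 8. The capillary gap was small in library 2, at 13736 against 13620 CPM in the deepest group. Over all high and low cells the capillary list summed to 14071 against 13709 CPM in library 2. In library 1 these sums were 19648 against 14342 CPM.

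Of 25 basement membrane and integrin genes 12 rose and 5 fell, at a median log2 change of 0.20. In the pairs 11 of 24 rose and 2 fell, and without cells of the short artery and vein sets 3 of 22 rose and 0 fell. Col15a1, a basement membrane collagen, was at 468 and 604 CPM in high cells and 284 and 349 CPM in low cells (0.76 ± 0.06, SE, adjusted p = 9.37e-06), with no overlap. Col18a1, the collagen that yields endostatin, went the other way, at 191 and 197 CPM against 425 and 374 CPM (-1.03 ± 0.08, adjusted p = 3.31e-06). Fn1 fell with it, at 44.9 and 25.9 CPM against 310 and 241 CPM.

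Among 19 genes of the angiopoietin, Tie and BMP receptor families 3 rose and 8 fell (median -0.28). In the pairs 2 of 18 rose and 0 fell, at a median of 0.088. Without cells of the short artery and vein sets 0 of 16 passed. The falls in all cells included the BMP9 receptor gene Acvrl1 (-0.66 ± 0.09, adjusted p = 0.000581), which did not pass in the pairs (-0.18, adjusted p = 0.619). Guidance genes gave 4 rises and 3 falls of 17, with the semaphorin receptor Plxnd1 higher (0.38 ± 0.08) and the ephrin receptor Epha4 lower (-1.52 ± 0.20). In the pairs 4 of 15 guidance genes rose and 2 fell, and without cells of the short artery and vein sets 0 of 14 passed. Of 16 junction and barrier genes 2 rose and 3 fell, beside 2.8% and 4.61% of all genes, and in the pairs 4 rose and 1 fell. Jam3, a junctional adhesion molecule, rose by 0.61 ± 0.10 and by 1.10 in the pairs, and Icam2 fell by 0.51 ± 0.06 on the log2 scale.

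Of 17 inflammatory genes 2 rose and 3 fell in all cells, beside 2.8% and 4.61% of all genes. Cxcl10, a chemokine, was at 56.5 and 130 CPM in high cells against 84.0 and 304 CPM in low cells (log2 change of -0.57 in library 1 and -1.22 in library 2, adjusted p = 0.000253), so the high value of library 2 exceeded the low value of library 1. Ccl2 was at 18.3 and 128 CPM against 91.7 and 199 CPM (-1.08 ± 0.22, adjusted p = 0.00913). In the pairs 8 of 17 were lower and 1 higher, with Ccl2 at -3.19 and Cxcl10 at -2.16. Of 22 immediate-early and stress genes 1 rose and 6 fell, among them Fos (-0.26 ± 0.05) and Ppp1r15a (-0.57 ± 0.09), and in the pairs 1 rose and 3 fell.

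The mRNA of the other tagged proteins followed no common direction. Vcam1, a leukocyte adhesion molecule, was at 8.31 and 15.6 CPM in high cells and 38.5 and 23.3 CPM in low cells (-1.22 ± 0.28, SE, adjusted p = 0.0171). Icam1 was at 437 and 1234 CPM against 325 and 1144 CPM (0.25 ± 0.07, adjusted p = 0.0487), a difference between libraries larger than that between classes. It missed the threshold in the pairs at 0.10 (adjusted p = 0.627). Cxcr4 did not pass (0.24 ± 0.20, adjusted p = 0.578), and Ptprc, the gene of CD45, had 0 and 4 UMIs in high cells and 0 and 1 in low cells and was not tested.

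Markers of other cells were checked beside these results. Of 10 pericyte and smooth muscle markers none rose and 2 fell in all cells, and 8 of 9 fell in the pairs. The list summed to 518 and 413 CPM in high cells and 643 and 578 CPM in low cells, and in the pairs to 496 and 413 CPM against 1059 and 1040 CPM, with Rgs5 at a log2 change of -1.39 there. Cells with at least 2 UMIs of the fibroblast list made up 8.18% and 6.94% of thinned high cells and 4.40% and 4.01% of thinned low cells. Of the 3 fibroblast markers tested 2 fell in the pairs. The deep low cells of the pairs thus carried more mural and fibroblast mRNA together with more cell cycle and inflammatory mRNA; the part of these cells in those results was not tested.

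The immune list summed to 43.0 and 64.2 CPM in high and 24.4 and 28.0 CPM in low cells. Of its 12 members 3 were tested and 1 rose (Kit, 0.92 ± 0.16), while C1qa, Mcpt4 and Cpa3 had no UMI. Lymphatic markers beyond the rule summed to 87.8 and 113 CPM in high cells and 124 and 97.1 CPM in low cells. With the stricter lymphatic filter, the Kdr log2 change was 0.69.

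Haemoglobin genes headed the largest rises, with Hbb-bt at 261 and 594 CPM against 23.9 and 37.2 CPM (3.77 ± 0.12, adjusted p = 2.94e-09) and Hbb-bs at 2.71 ± 0.15. These values rest on few cells: in the high class 5 cells per library held 99.1% and 95.9% of the Hbb-bs UMIs. All 5 tested red cell markers rose, and in the pairs 2 passed upward through library 1 alone: there Hbb-bs was at 2296 against 188 CPM and Hbb-bt at 411 against 18.0 CPM, while in library 2 both were lower in high cells (298 against 600.2 CPM and 58.5 against 65.7 CPM). The other members of the 10 largest rises were Hba-a1, Hba-a2, Kcne3, Esm1, Cxcl2 (0.95 ± 0.15), Oaf (0.94 ± 0.13), Ablim3 (0.93 ± 0.14) and Piezo2 (0.91 ± 0.12). Without cells that had 2 or more red cell UMIs, the Kdr log2 change was 0.66, Kcne3 was at 1.77 and Esm1 at 1.17.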

How the data were processed

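Sorted endothelial cells of neonatal mouse ears were measured in 2 mRNA libraries (10x 3' v3) and 2 antibody tag libraries (TotalSeq-A) made from the same cells, per the labels' protocols. The mRNA files hold UMI counts per gene and cell, which the authors deposited; the submitters' processing notes name Cell Ranger, the mm10 build and, without a role, Seurat 3.0.2, and the matrix headers give software version 3.0.2. The tag files hold deposited counts per antibody and barcode. Neither their program nor whether they are UMIs or reads is stated in these sources, hence the name tag counts.

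Barcodes of each tag library were joined to the mRNA library of the same replicate. Of the cells eligible by mRNA, 16 and 25 had no tag data. The mRNA libraries shared 3 barcodes and the tag libraries 5. Raw UMIs were summed per library and class, which gave 4 sums of 2347119 to 4706727 UMIs, and tested with edgeR 4.0.16 in R 4.3.3 (quasi-likelihood test with the library as a block, TMM scaling, filterByExpr on the classes, Benjamini-Hochberg adjustment over 10699 genes, threshold 0.05). The fit has 1 residual degree of freedom, so the spread shared over genes carries the test. A standard error is the log2 change over the root of its F value. Levels are TMM-scaled CPM, except in depth groups, tag bins, summed lists and the three-class plot, which use CPM of plain UMIs. The block rests on high and low cells coming from the same library and animals; the deviations of the high and low sums of a library correlated at r = 0.317 over 10699 genes. DESeq2 1.42.0 was an alternative. No correction for free RNA was made, and doublets were removed only in an alternative. Intervals cover counting error only. Tables were made with numpy 2.4.6, scipy 1.17.1 and pandas 2.3.3, and plots with matplotlib 3.10.9.

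The members, gene lists and thresholds were chosen with earlier results of these data known. Genes named were those of the 5 tagged proteins, the VEGF ligands and receptors, the 10 called genes that rose most and the 10 that fell most, with both libraries moving one way and a mean log2 CPM of 5 or more, and, from each of 25 lists, up to 4 genes of smallest adjusted p. The genes of the cell rule, mitochondrial, ribosomal protein and sex-linked marker genes and predicted gene models were left out of the ranking. The test was also tried on simulated counts, whose levels and spread were taken from the fitted data. Gene positions are from GENCODE vM21.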

Additional observations from a re-analysis of the deposited data

Results flagged for a closer look

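Tag counts that matched no antibody made up 7.913% of the tag counts of library 1 and 11.49% of those of library 2. They were looked at because they lie outside the 5 antibodies and 2 isotype controls that the comparison uses, and because the file keeps them as a row of their own. They entered no class and no ratio.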

How the results depend on the processing

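The comparison rests on 2 libraries, and leaving out either gives log2 values with no test: Kdr ranged from 0.57 to 0.80. The fit without the replicate block called 95 genes and put Kdr at 0.67 (adjusted p = 0.132). The planned restriction to cells with few artery and vein UMIs could not be fitted, since it left 1 high cell in library 1 and 0 in library 2. Settings on UMI-matched pairs, red cell UMIs, CD45 tags and the narrower marker sets were chosen after seeing the data. Where a value below changed, the cause was not tested.

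The count of called genes, 793 in all, was 479 with stricter and 1348 with looser tag thresholds, 439 with few isotype tags, 375 between the UMI quartiles, 228 with thinned cells, 166 without cells carrying cell cycle UMIs, 498 with the stricter lymphatic filter, 112 with the stricter cell filter (1000 genes and 5% mitochondrial UMIs), 142 with DESeq2, 458 in pairs with equal isotype tags and 195 without the narrower artery and vein sets. It was 24 in UMI-matched pairs outside the artery, vein and dividing sets, of 5396 genes tested, with Kdr at 0.66 (adjusted p = 0.0911). Over the settings with a test, Kdr kept its direction and, apart from that one and the fit without the block, its call.

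Differences in shares of cells, high minus low, depended on depth. For the long lists they were 5.58 points (artery), 7.10 (vein), 21.3 (lymphatic) and 23.2 (cell cycle) as deposited. Thinned cells gave -20.4, -0.596, -1.50 and 7.21, and pairs -1.34, -1.16, 0.716 and -2.06. For the narrower sets the deposited values of 18.3 (dividing), 1.16 (vein), 40.6 (tip) and 39.9 (capillary) became 7.52, -2.96, 18.0 and 16.8 with thinned cells and -7.21, -5.51, 19.9 and 30.3 in pairs; the artery set went from -13.2 to -21.0 and -8.81. The ratio of mean tags in pairs was 1.20 for ICAM1 (1.98 in all cells), 1.36 for CXCR4 (1.97), 2.40 for IgG2b (2.70), 2.02 for IgG2a (2.76) and 0.983 for UMIs (2.09).

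Some named genes turned direction, given as log2 changes. Icam1 did so with the VEGFR2 tag as a share of all tags (-0.69), with few isotype tags (-0.048), between the UMI quartiles (-0.12), without cells carrying cell cycle UMIs (-0.54), without the narrower artery and vein sets (-0.017) and in pairs outside all 3 sets (-0.039). Between the UMI quartiles so did Hbb-bs (-0.47), Hba-a2 (-1.08), Hba-a1 (-0.73), Pgf (-1.71), Tpx2 (-0.44) and Mki67 (-0.77). In the UMI-matched pairs Flt1 (0.40), Angpt2 (-0.25), Tpx2 (-0.73) and Mki67 (-0.86) turned. Equal isotype tags turned Pgf (-2.25), Flt1 (0.36), Efnb2 (0.0055), Angpt2 (-0.035), Tpx2 (-0.86) and Mki67 (-0.74). Pairs outside all 3 sets (37 and 45 pairs) turned Cxcl2 (-1.40), Oaf (-0.38), Piezo2 (-0.017), Pgf (-3.62), Ptprb (0.052), Efnb2 (0.38), Apln (-0.20) and Angpt2 (-0.71). The tag share turned Nrp2 (-0.14) and Rgs5 (0.99), and leaving out cells with cell cycle UMIs turned Rgs5 (3.04) and Nr2f2 (0.026). Without the narrower artery and vein sets Pgf (-0.94), Sox17 (0.052) and Jag1 (0.017) turned, and without candidate doublets Mki67 (-0.059).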
